A study of Mus musculus with 1 sample.

Results

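Collagens are the main fibrous proteins of the extracellular matrix. Their genes were taken as the 44 rows, out of 23282, whose symbol is Col, a type number, the letter a and a chain number. The symbol alone chose them, with earlier results of these data already known. They were grouped by the structure their protein is known to form, as 11 fibrillar, 8 basement membrane and 25 other chains. The 1 library analysed here came from mixed glia cultured from the ventral midbrain (VM) of ICR(CD-1) Outbred Mice, labelled as postnatal day 5 and as control. The study asked how an inhibitor of the kinase SGK1 changes such glia, and described its control as treated with the solvent DMSO. Inhibitor-treated glia were not analysed here. How many pups or cultures were pooled is not given in the sources used here. With a single library the spread between cultures is unknown, so values are given without errors and no test was made.

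A collagen chain is built from a repeat of glycine followed by any pair of amino acids. Chains wind around each other into a helix, in which a residue larger than glycine would not fit at the repeat position. Fibrillar collagens form the long fibres of connective tissue and of the meninges. Type IV collagen forms the sheet of the basement membrane under endothelium and around brain vessels, where astrocyte endfeet rest. Type VI collagen forms beaded filaments between the fibres and the basement membrane. In the brain the fibrillar chains are known mainly from meningeal and perivascular fibroblasts.

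The repeat can be read in the coding sequence, and it sets the fibrillar and basement membrane chains apart. Below are coding exons of highly ranked chains, from GENCODE M21 transcripts on GRCm38, written 5′ to 3′ on the coding strand. Capitals mark the glycine codon that opens each triplet of codons. The first set is the first exon of 54 bases within the longest repeat of each of the fibrillar genes Col1a1 (chr11:94939904-94939957, plus strand, coding exon 8), Col1a2 (chr6:4515481-4515534, plus strand, coding exon 8), Col3a1 (chr1:45325360-45325413, plus strand, coding exon 6) and Col5a2 (chr1:45422386-45422439, minus strand, coding exon 10). It is shown because these exons hold 6 triplets with no break.
Col1a1: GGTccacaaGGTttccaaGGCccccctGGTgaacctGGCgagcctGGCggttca
Col1a2: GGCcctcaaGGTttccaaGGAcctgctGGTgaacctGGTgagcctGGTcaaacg
Col3a1: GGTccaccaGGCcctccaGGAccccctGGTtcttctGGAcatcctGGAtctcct
Col5a2: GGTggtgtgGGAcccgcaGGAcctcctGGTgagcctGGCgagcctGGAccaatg
The Col1a1 and Col1a2 exons, which encode partner chains of type I collagen, were identical at 42 of 54 bases (77.8%).

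The second set shows chains whose repeat is broken. It holds the first coding exon with at least 2 triplets on each side of a break, in Col4a1 (chr8:11244486-11244569, minus strand, coding exon 9), Col4a2 (chr8:11406813-11406854, plus strand, coding exon 11) and Col6a1 (chr10:76714658-76714708, minus strand, coding exon 23).
Col4a1: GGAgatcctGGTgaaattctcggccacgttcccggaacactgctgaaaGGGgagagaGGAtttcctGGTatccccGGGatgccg
Col4a2: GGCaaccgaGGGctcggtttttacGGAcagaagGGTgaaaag
Col6a1: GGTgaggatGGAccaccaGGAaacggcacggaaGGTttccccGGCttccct
The break in the Col4a1 exon spans 30 bases (10 codons). The breaks in Col4a2 and Col6a1 span 6 bases (2 codons) each when triplets are read from the 5′ end. Read from the 3′ end, the lower-case glycine codons ggt in Col4a2 and ggc in Col6a1 would open a triplet and the break would fall 1 triplet earlier. Such interruptions are known to make the type IV helix flexible.

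A stretch of 5 or more triplets in a row, each opening with a glycine codon, was counted as a run. The longest run was a median of 338 triplets in the 11 fibrillar genes (216 to 344), 41 in the 8 basement membrane genes (30 to 66) and 52 in the other 25 (23 to 113). The number of runs went the other way. Fibrillar genes had a median of 2 runs (2 to 3), whereas basement membrane genes had 23.5 (11 to 27). Only Col24a1 and Col27a1 among the fibrillar genes had a longest run under 300 triplets, at 216 and 217. These values came from the reference annotation and do not depend on the library. Of 21620 coding genes read, 64 had a run of 20 or more triplets, and these included each of the 44 collagen chains.

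**Figure D1:**
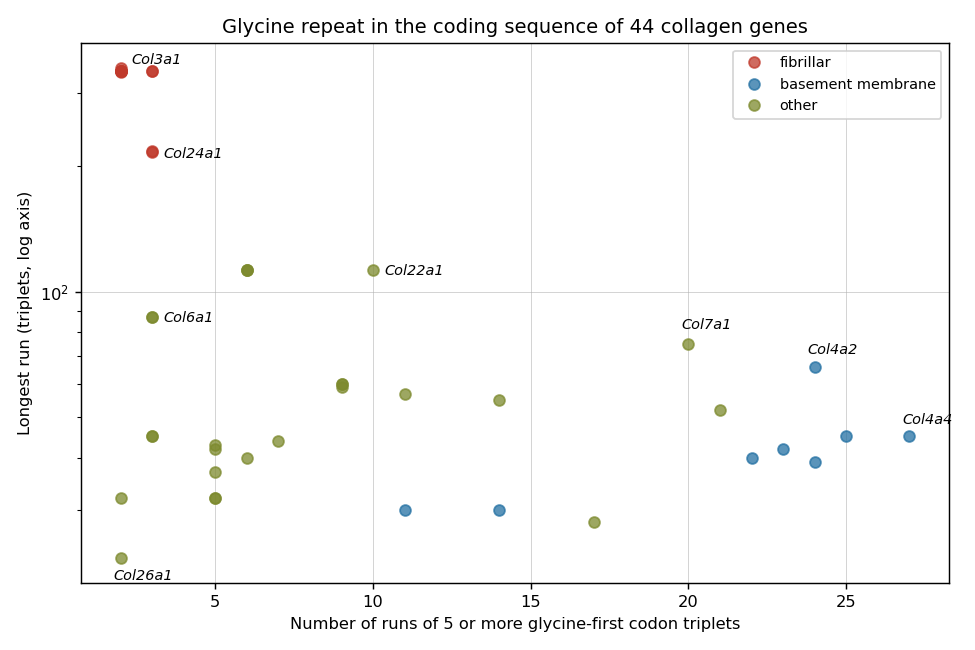
Number of runs of glycine-first codon triplets (horizontal axis) against the longest run in triplets (vertical log axis) for the 44 collagen genes, 1 point a gene, coloured by class. Fibrillar genes lie at the upper left with 2 or 3 runs and a longest run of 216 to 344, and type IV genes at the lower right with 22 to 27 runs.

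Among exons that fit within a single run, give or take a few bases at each end, length followed the same division. Exons with a break in their middle, such as those of the second set above, were not counted. This kept 25 of 52 coding exons in Col4a1 and 43 of 51 in Col1a1, so the basement membrane shares describe only the unbroken part of the repeat. In fibrillar genes 302 of 514 such unbroken exons (58.8%) had exactly 54 bases, against 14 of 153 (9.15%) in basement membrane genes. Among fibril-associated genes it was 106 of 197 (53.8%), so this exon length was not particular to fibrillar chains. A length that is a multiple of 9 bases, which keeps whole triplets, was found for 508 of the counted fibrillar exons (98.8%) and 128 of the counted basement membrane exons (83.7%).

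In the library, the values were normalised read counts as given by the authors, and they summed to 27569507 over all genes. Genes at 10 or above were counted as detected. Long genes collect more reads, so genes were compared by level, which is the value per kilobase (kb) of annotated exon per 1000000 of the sum. Of the 44 collagen genes, 42 were detected, against 67.2% of all rows. Col6a5 was at 8, and Col6a4 was listed at 0. The collagen values summed to 106220, or 0.385% of all values. Individual genes ranged widely, with 29 at 100 or more, of which 17 reached 1000, and 13 from 10 to 99. The median collagen level was 1.48, against 3.72 for the 15477 detected genes with an annotated length. A total of 17 of the 44 lay above that median, which 50% of detected genes exceed by definition. So detection was common, but the typical collagen gene was below the typical detected gene. Its level was above the median of 1.12 for all rows with an annotated length, detected or not.

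A few chains held most of the collagen level. The 3 highest, Col1a1, Col6a1 and Col5a2, held 43.0% of the summed level, the 5 highest held 58.4% and the 10 highest held 83.4%. These first 3 kept their ranks when exon length was replaced by the length of the longest transcript or of the coding sequence. From the highest to the lowest detected gene, Col1a1 to Col19a1, the level ranged 1479-fold. By class, fibrillar chains held 43.9% of the summed collagen level, basement membrane chains 21.7% and other chains 34.4%. The class medians were 5.14, 7.29 and 0.676, and 6 of 11, 5 of 8 and 6 of 25 genes lay above the median of detected genes. The order of the fibrillar and basement membrane medians depended on length, since without division by length the fibrillar median value, 1806, was above the basement membrane one, 1478.

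**Figure D2:**
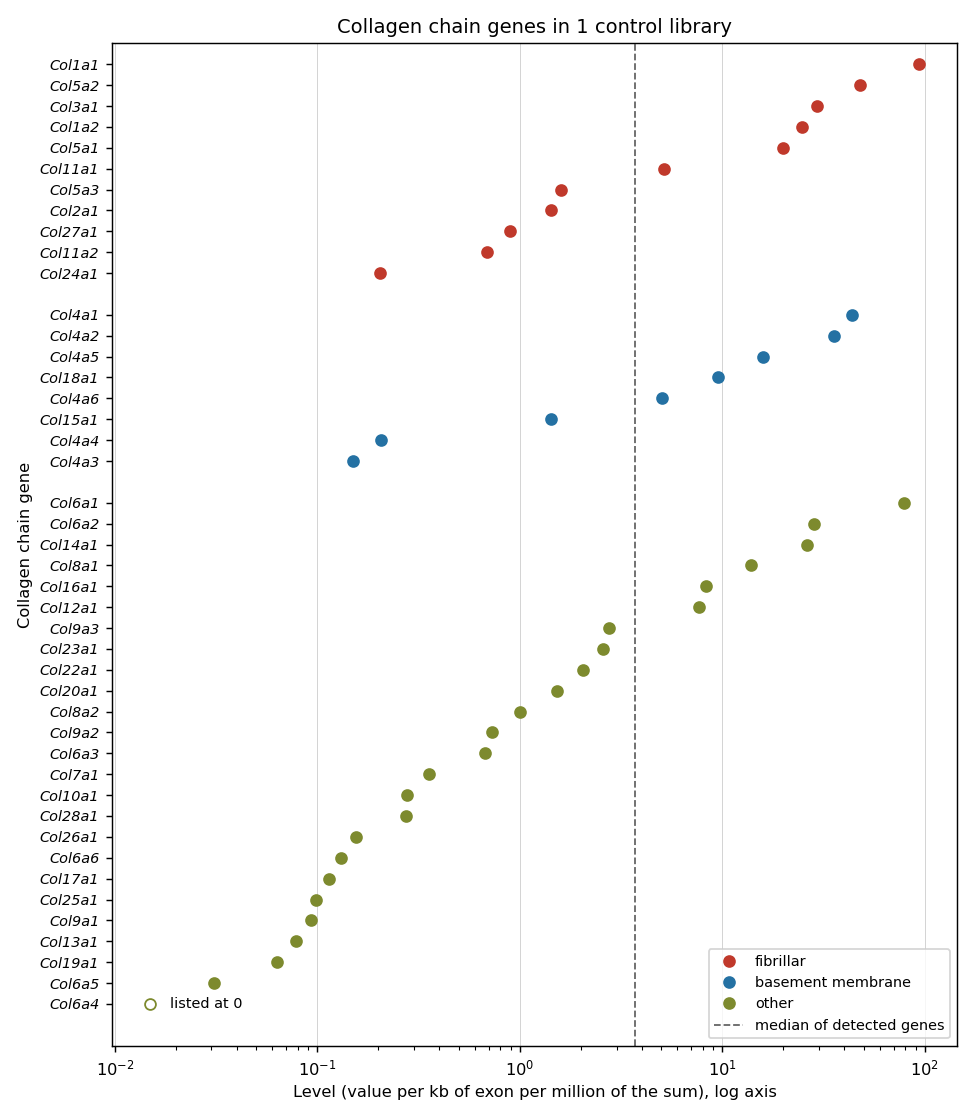
Level of each of the 44 collagen genes in the control library (horizontal log axis, value per kb of exon per 1000000 of the sum), sorted within class, with the median of detected genes (3.72) dashed. Each class spans high and low chains, from Col1a1 at 93.5 down to Col6a5 at 0.0308, and the open circle marks Col6a4, listed at 0 and placed at an arbitrary point.

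Among fibrillar chains, type I collagen, the main fibre protein of skin, bone and meninges, was highest. Col1a1 had a value of 16915 and a level of 93.5, above 96.5% of detected genes. Its partner Col1a2 had a value of 8468 and a level of 24.7. Type I collagen is built with Col1a1 chains in excess over Col1a2. The ratio of their levels was 3.78, but 1.80 by longest transcript and 1.89 by coding length, since annotated Col1a2 exons total 12.4 kb and its longest transcript 5348 bases. The direction held for each length, and the size depended on it.

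Col3a1, the chain of reticular fibres and vessel walls, had a value of 7901 and a level of 29.2. Type V collagen starts new fibrils and limits their width, and its Col5a2 chain was at 12565, with a level of 47.5. That was above Col3a1 (ratio of levels 1.63) and above its own partner Col5a1, which had a value of 4677 and a level of 19.98. Type V collagen usually carries more Col5a1 than Col5a2 chains, whereas here the Col5a1 to Col5a2 ratio was 0.42, and 0.29 to 0.37 under the other length choices. Col5a3, a minor type V chain, was at 301 with a level of 1.60.

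The fibrillar chains known from cartilage were lower. Col11a1, a fibril-nucleating chain related to Col5a1, was at 1806 with a level of 5.14. Its partner Col11a2 was at 131 with a level of 0.691, giving a ratio of 7.44, which was 10.9 to 13.8 under the other length choices. Col2a1, the main cartilage collagen, was at 363 with a level of 1.42. The minor fibrillar chains Col27a1 and Col24a1 were at 320 and 43, with levels of 0.891 and 0.205. The 5 highest fibrillar genes therefore belonged to types I, III and V.

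Type IV collagen was present with a marked order among its chains. Col4a1 and Col4a2, which form the common basement membrane network, had values of 8934 and 6501 and levels of 43.4 and 35.6. Their ratio was 1.22, and 1.34 to 1.41 under the other length choices. Col4a5 and Col4a6, which form a network known from smooth muscle and some epithelia, were at 2941 and 1112, with levels of 15.9 and 5.06. Col4a3 and Col4a4, which join Col4a5 in the filter of the kidney, were at 41 and 60, with levels of 0.149 and 0.205. The Col4a1 level was 2.73 times that of Col4a5 and 291 times that of Col4a3.

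Multiplexins are basement membrane collagens that carry sugar chains, and their tails can be released as the endostatin fragments. Col18a1 was at 1843 with a level of 9.52, and Col15a1 at 248 with a level of 1.42. The ratio of levels was 6.72.

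Type VI collagen was uneven. Its assembly needs Col6a1, Col6a2 and a longer chain, usually from Col6a3 and in some tissues from Col6a4, Col6a5 or Col6a6. Col6a1 was at 9564 with a level of 79.2, above 95.8% of detected genes, and Col6a2 at 6503 with a level of 28.3. Their ratio was 2.80, and 1.47 to 1.76 under the other length choices. Col6a3 was at 223 with a level of 0.676, which made Col6a1 117 times and Col6a2 41.9 times higher. Without division by length the Col6a1 value was still 42.9 times that of Col6a3.

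The other long chains did not make up that gap. Col6a6 was at 33 (level 0.131), Col6a5 at 8 (level 0.0308), and Col6a4 was listed at 0. Together with Col6a3 these genes summed to 264, a level of 0.838, and the Col6a1 level was 94.6 times that sum. Without division by length it was 36.2 times. Exons of Col6a3 overlap no other annotated gene.

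**Figure D3:**
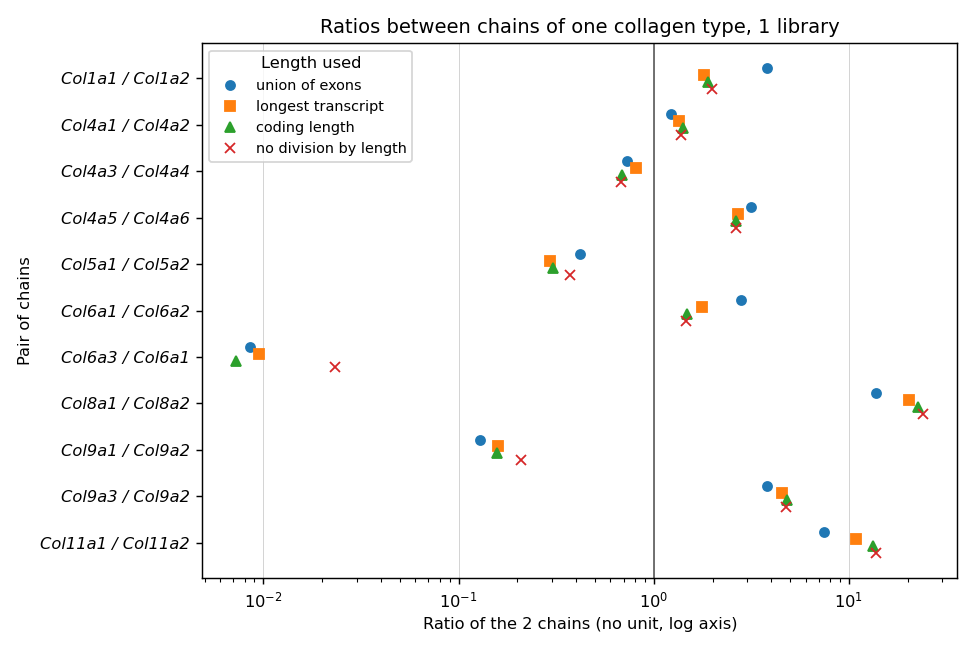
Ratio between chains of one collagen type in the control library (horizontal log axis, no unit), 11 pairs, with a marker for each of the 4 length choices and a line at 1. Each pair stays on its side of 1, with Col6a3 to Col6a1 farthest below (0.0085 by exon length) and Col8a1 to Col8a2 farthest above (13.8).

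Fibril-associated collagens sit on the surface of fibres. Col14a1, which binds fibres and decorin, was at 5077 with a level of 26.3. Col12a1, a related chain of tissues under tension, was at 3221 with a level of 7.67, and Col16a1, found near basement membranes, was at 1537 with a level of 8.26. The Col14a1 level was 3.42 times that of Col12a1, and its value without division by length 1.58 times. Below them, Col22a1 was at 520 and Col20a1 at 217, with levels of 2.05 and 1.53. Col19a1 was at 12, with a level of 0.0632.

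Type IX collagen covers cartilage fibrils as a mix of its Col9a1, Col9a2 and Col9a3 chains. Col9a3 was at 294, Col9a2 at 62 and Col9a1 at 13, with levels of 2.77, 0.727 and 0.0930. Col9a3 exons share 6.07% of their bases with Tcfl5 on the opposite strand, the largest overlap of the 13 collagen genes that have any. Col4a3 follows with 5.65%, and the other 11 share at most 3.39%. Whether the authors' counting used strand is not known, and the part of overlapping genes in these values was not tested.

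Type VIII collagen forms a hexagonal network, known from the inner layer of the cornea and from vessel walls. Col8a1 was at 2976 with a level of 13.8, and Col8a2 at 124 with a level of 1.00, so the ratio was 13.8. It reached 22.6 by coding length. Col10a1, the related chain of growth plate cartilage, was at 24 (level 0.278). Col7a1, which anchors skin to its basement membrane, was at 101 (level 0.356).

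Transmembrane collagens were low. Col23a1 was highest of these at 405 with a level of 2.56, and the others were Col25a1 at 35, Col17a1 at 19 and Col13a1 at 10, with levels from 0.0788 to 0.115. Col17a1 belongs to the attachment plaques of skin, and Col25a1 is known from neurons and from amyloid plaques. Col26a1 and Col28a1 were at 35 and 37, with levels of 0.155 and 0.274.

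The collagen genes lie on 15 chromosomes, and 8 pairs are within 100 kb of each other. This distance was chosen after the values were seen. Col4a1 and Col4a2 start 21 bases apart on opposite strands of chromosome 8, and their annotated exons share 22 bases. Col4a3 and Col4a4 start 72 bases apart on chromosome 1, and Col4a5 and Col4a6 start 1309 bases apart on chromosome X, each pair also head to head. Col3a1 and Col5a2 lie tail to tail on chromosome 1 with 24.6 kb between them.

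On the log2(level + 1) scale the median difference within the 8 pairs was 0.21 (0.04 to 1.48), against 1.81 over all 946 pairs of collagen genes. By coding length the medians were 0.33 and 2.23. The largest differences were for Col4a5 and Col4a6 (1.48) and for Col6a1 and Col6a2 (1.45). This scale compresses low levels, so the 4 pairs with both genes at a level of 0.205 or less, such as Col9a1 with Col19a1 at 13 and 12, differ little on it by construction. The other 4 pairs differed by 0.28 (Col4a1 and Col4a2), 0.68 (Col3a1 and Col5a2), 1.45 and 1.48, so neighbours cannot be called alike from the median. The pairs share genes in the Col6a4, Col6a5 and Col6a6 cluster.

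**Figure D4:**
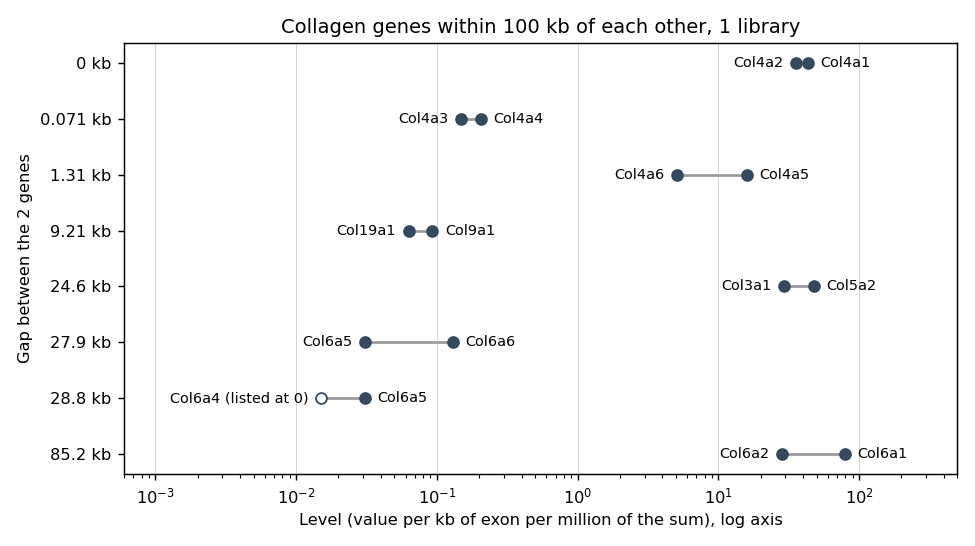
Levels of the 2 genes (points joined by a line, horizontal log axis) in each of the 8 pairs of collagen genes within 100 kb, ordered by the gap between them (vertical axis). The Col4a1 and Col4a2 pair lies at 43.4 and 35.6 and the Col4a3 and Col4a4 pair at 0.149 and 0.205, and the open circle marks Col6a4, listed at 0 and placed at an arbitrary point.

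Before collagen can fold, prolines at the last position of the triplet are hydroxylated, which steadies the helix. Across the 44 genes a median of 36.7% of triplets had a proline codon in that position, from 22.3% in Col6a5 to 55.6% in Col4a5. Basement membrane genes had a median of 47.9% at the last and 23.7% at the middle position. Fibrillar genes had 33.3% and 31.9%. Genes of this step were listed together with genes of other hydroxylation and glycosylation steps. Of these 15 genes, 15 were detected and 13 lay above the median of detected genes, with a median level of 13.5. Over all rows 67.2% were detected, the share to set beside this count and those of the lists below. P4hb, the disulfide isomerase subunit of prolyl hydroxylase, was highest at 18850 (level 239). It was followed by the prolyl isomerase Ppib at 12329 (level 135) and the catalytic subunit P4ha1 at 5775 (level 50.9). The P4ha1 relatives P4ha3 and P4ha2 were at 1137 (level 13.2) and 351 (level 2.04), and P4ha2 lay below the median of detected genes. P4hb and Ppib also fold other secreted proteins. Colgalt2, a collagen galactosyltransferase, was lowest at 14 (level 0.120). Ppib exons share 24.96% of their bases with Snx22 on the opposite strand.

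Folding and export genes were similar, with 7 of 8 detected, 6 above the median of detected genes and a median level of 11.5. Serpinh1, which encodes the collagen chaperone HSP47, was at 6399 with a level of 95.01, close to that of Col1a1. Fkbp10, a prolyl isomerase for procollagen, was at 2689 (level 33.2, with 6.58% of exon bases shared with Nt5c3b on the opposite strand), and Mia3, which loads procollagen into transport carriers, was at 3376 (level 27.6). Mia2 was listed at 0, but RefSeq lists Ctage5 as an older name of this gene, and a separate Ctage5 row was at 3580.

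Genes that trim propeptides outside the cell were lower, with 7 of 8 detected, 2 above the median of detected genes and a median level of 1.02. Pcolce, which enhances removal of the C-terminal propeptide, was at 2090 (level 19.8). Bmp1, the protease that removes it, was at 1528 (level 6.25). Of the proteases that remove the N-terminal propeptide, Adamts14 was at 399 with a level of 2.79. The lowest was Tll2, a relative of Bmp1, at 6 (level 0.0460).

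Of 6 cross-linking genes, 6 were detected, 5 lay above the median of detected genes and the median level was 14.5. Tgm2, a transglutaminase, was at 4192 (level 33.0). The lysyl oxidases Loxl2 and Lox were at 3434 and 2555, with levels of 23.0 and 19.4, and Loxl4 was lowest at 12 (level 0.103). Tgm2 exons share 13.7% of their bases with Gm20412 and 8.03% with Rprd1b, both on the opposite strand, and Loxl2 exons 5.57% with an antisense gene.

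Of 11 collagen receptor genes, 9 were detected and 4 lay above the median of detected genes, with a median level of 3.47. Itgb1, the shared beta subunit of collagen-binding integrins, was at 17232 (level 153). Its alpha partners were far lower, with Itga1 at 473 (level 0.922), Itga11 at 391 (level 2.76), Itga2 at 14 (level 0.0712) and Itga10 at 6 (level 0.0420). Itga10 exons share 33.5% of their bases with a gene on the same strand. Itgb1 also pairs with alpha subunits that bind other ligands. The receptor kinase Ddr1 was at 3397 (level 25.8), and Lair1, an inhibitory receptor of leukocytes, was at 1869 (level 9.07). Gp6, the collagen receptor of platelets, was listed at 0.

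Of 7 collagen-degrading enzymes, 6 were detected and 2 lay above the median of detected genes, with a median level of 0.539. Mmp14, a membrane-bound collagenase, was at 6051 (level 36.8), and Mmp2, which it activates, was at 1515 (level 16.3). Mmp9, a gelatinase, was at 110 (level 1.13), and Ctsk, the collagenase of osteoclasts, was lowest at 3 (level 0.0720). Thus steps inside the cell and cross-linking had median levels above that of all detected genes, and propeptide trimming, receptors and degradation had medians below it. For receptors this side turned when values were not divided by length.

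**Figure D5:**
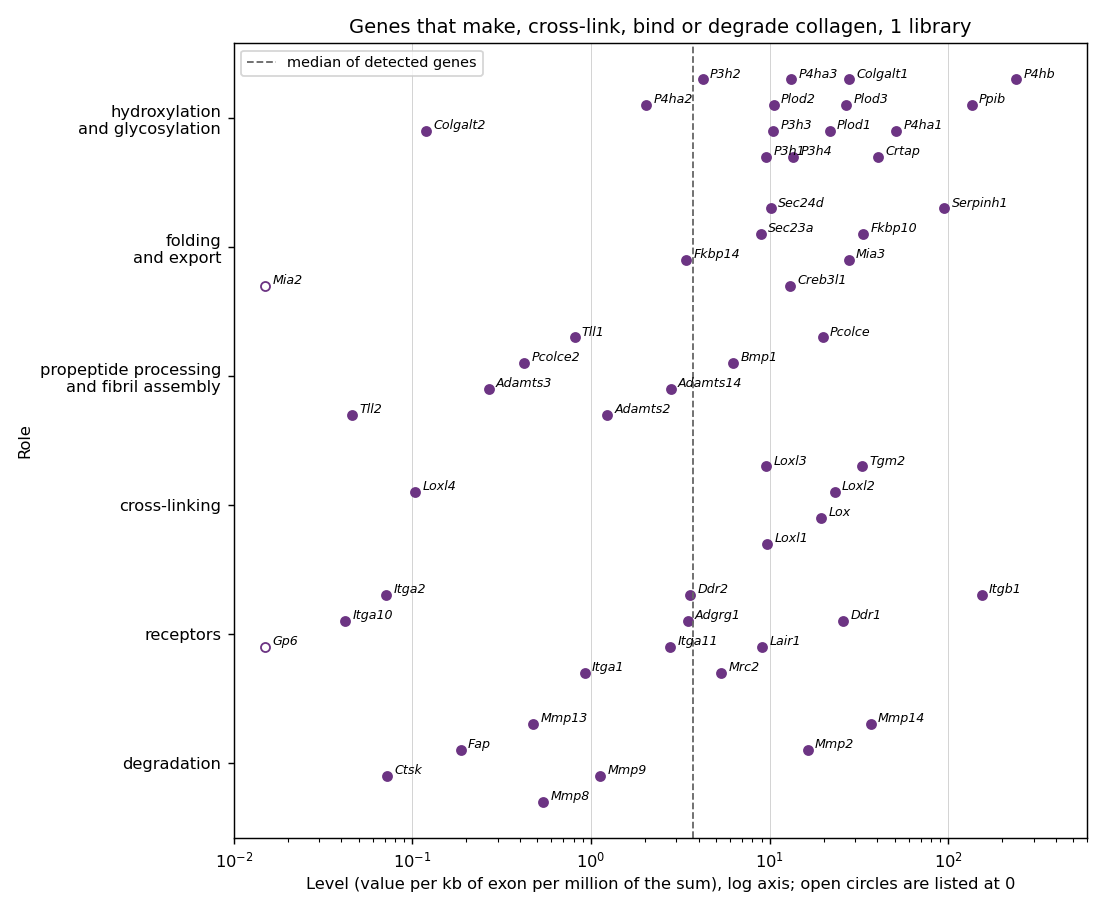
Level of 55 genes (horizontal log axis, value per kb of exon per 1000000 of the sum) grouped by their role in collagen synthesis, cross-linking, binding or breakdown, with the median of detected genes (3.72) dashed and open circles for genes listed at 0, placed at an arbitrary point. Points for hydroxylation and cross-linking lie mostly to the right of the line, and those for propeptide processing and degradation mostly to the left.

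The collagen values come from a mixed culture, where fewer cells of a type and less RNA per cell cannot be told apart. The labelled glial cells were present by their markers. Of 8 astrocyte markers 8 were detected, with levels from 5.15 to 148, as were 8 of 8 microglia markers, with levels from 15.4 to 1138. Fibroblast markers were also present, with 11 of 12 detected, a summed level of 139 and a median of 5.74. Of the 12, 7 lay above the median of detected genes. Ogn was at 3226 (level 45.6), Twist1 at 1332 (level 29.7) and Dcn, decorin, at 3165 (level 19.7). Below the median of detected genes were Foxc1 at 385, Pdgfra at 188 (level 0.680), Foxc2 at 38, Aldh1a2 at 31 and Slc22a6 at 2. Of 9 mural cell markers 7 were detected, against 67.2% of all rows. Their median level was 0.363, and 4 lay above the median of detected genes. The contractile genes Acta2 and Tagln were at 26499 and 11771 (Tagln exons share 62.4% of their bases with an antisense gene), and Cspg4 and Pdgfrb, which pericytes and other cells express, were at 2634 and 1150, with levels of 8.01 and 7.62. Notch3, Abcc9 and Des were at 81, 25 and 10, with levels of 0.363, 0.108 and 0.0966. The pericyte markers Rgs5 and Kcnj8 were at 9 and 5, under the detection minimum.

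Endothelial cells also make basement membrane collagen. Of 7 endothelial markers 5 were detected, close to the 67.2% of all rows. Their median level was 0.241, and 1 lay above the median of detected genes. That was Flt1 at 2427 (level 6.52), followed by Kdr at 119 (level 0.478) and Cdh5 at 43 (level 0.371), while Cldn5 was at 3 and Tek was listed at 0. The part of fibroblasts or any other cell type in the collagen levels was not tested, since the library holds no separated cells.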

How the data were processed

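RNA of the control culture was extracted with Trizol and the library made with a SMARTer kit. Per the study's methods, the authors trimmed bases of quality under 20, mapped reads to GRCm38/mm10 with STAR and used HTSeq-count for reads in exons of the NCBI RefSeq Release 105 annotation. The submitters' processing notes also name TopHat and edgeR. The deposited values are whole numbers that the authors call normalised read counts, and they were handled as scores, not as raw counts. The normalisation, strand setting, treatment of multi-mapped reads and tool versions are not given in the sources used here. Sequencing depth is therefore unknown, and no interval or detection floor is given.

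Of 23282 rows, 22889 (98.3%) were matched to GENCODE M21 (GRCm38) by symbol or RefSeq synonym. Each level is the value divided by the union of annotated exons in kb and by the sum of all values, then multiplied by 1000000. It assumes even coverage along the gene. GENCODE is not the annotation that the authors counted on. Coding repeats and exons came from the longest complete coding transcript of each gene. The members and gene lists were chosen with earlier results of these data known. Each collagen gene is named, and in each pathway list the 3 highest, the lowest and those at 0. Receptor, propeptide and hydroxylation genes beyond these, and cell type markers, were chosen after their values were seen. The alternatives were other detection minima, lengths, denominators, class limits and a pseudocount of 0.1. One cell type list is not reported here. Functions were tested on simulated data. Python 3.11.15, numpy 2.4.6, pandas 2.3.3 and matplotlib 3.10.9 were used.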

Additional observations from a re-analysis of the deposited data

How the results depend on the processing

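A value counted as moved when it changed by more than 1.5 times, since 1 library gives no replicate spread. Of 79 alternative values for 36 results, 60 stayed within that range, 18 moved and 1 turned direction. By longest transcript the Col1a1/Col1a2 ratio was 1.80, the Col6a1/Col6a2 ratio 1.76 and the fibrillar median level 8.54. By coding length the ratios were 1.89 for Col1a1/Col1a2, 1.48 for Col6a1/Col6a2, 22.6 for Col8a1/Col8a2 and 13.3 for Col11a1/Col11a2. Without division by length they were 2.00, 1.47, 24 and 13.8, with 0.0233 for Col6a3/Col6a1 and 0.210 for Col9a1/Col9a2. As multiples of the detected-gene median, medians without division by length were 3.12 for basement membrane and 3.82 for fibrillar chains, 0.519 for propeptide processing and 0.0761 for degradation. Receptors turned from below to above that median, at 1.10. With genes at 10 or more alone, the degradation median was 0.833. The cause was not tested, beyond the lengths that each alternative exchanges. With minima of 1, 3 and 100, 43, 43 and 29 collagen genes were detected. No paired analysis was possible because there is 1 library. The lack of a replicate limits each value to this library.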

Other observations

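The codons that spell the repeat glycine were counted in the reference sequence. The codon GGT made up a median of 35.3% of repeat glycines in the 11 fibrillar genes, 22.0% in the 8 basement membrane genes and 22.9% in the other 25. The classes overlapped, with 16.1% to 53.8% in fibrillar, 15.7% to 31.98% in basement membrane and 10% to 30.5% in other genes. In the 21576 other coding genes GGT made up 17.7% of glycine codons. That share pools all their glycine codons, so it is not a median over genes or limited to repeats. Among the 44 collagen genes the highest shares were in Col1a1 (53.8%) and Col1a2 (51.3%), which were first and ninth by level in the library. Over the 44 genes the rank correlation (Spearman rho) of level with GGT share was 0.307, so a high level did not always go with GGT. Col6a1, second by level, had 24.8%, whereas Col2a1, 23rd by level, had 40.7%. The codon GGG was rarest in Col1a1, at 1.41% of its repeat glycines, against 23.5% of all glycine codons pooled over the other coding genes. These shares were looked at after the values were seen and no test was made.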
